A study of Mus musculus with 3 samples.

Results

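The 78 protein-coding genes whose symbols start with Mrpl or Mrps are named for proteins of the mitochondrial ribosome, 49 for the large subunit (Mrpl) and 29 for the small subunit (Mrps). By structure the products of Mrps18a and Mrps30 lie in the large subunit, and that of Mrps36 is not counted as a ribosomal protein; here large and small follow the symbol unless stated. The genes were taken by symbol and gene type from the 50600 genes of the deposited tables, of which 21764 are protein-coding, a rule that uses no measured value. RNA was sequenced from primary T-helper 1 (Th1) cells of strain C57BL/6NJ, made with a protocol that the labels name for CD4+ T cell differentiation. The assay is named as total RNA, while the library protocol is named for polyA+ RNA. The 3 libraries form 1 group, numbered as biological replicates 1, 2 and 3, each with its own biosample entry and all with the same donor entry. The labels do not say whether separate animals or cultures lie behind them, so tests between libraries measure a spread that may be technical. The file headers carry the words stranded and 24 hr, age and sex are not given, and the samples analysed here hold no other treatment or cell type.

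The mitochondrial ribosome translates the few mRNAs of the mitochondrial genome, all of which encode subunits of the respiratory chain and of the ATP synthase. Its RNA is made in the organelle, while all its proteins are encoded in the nucleus, made in the cytosol and imported. Part of these proteins have counterparts in the bacterial ribosome, and the rest exist only in mitochondria. Activated T cells are known to enlarge their mitochondria, and mitochondrial translation is known to be needed for their cytokine production and proliferation.

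Read pairs were counted on the annotated strand of each gene with strand option 1. The sources used here do not give the strand of the libraries, and whether the option fits it was not tested. If it did not, a count on a gene without an opposite-strand partner could be a residue of its mRNA, and a count on a gene that shares exon bases with an opposite-strand gene could belong to that gene. Every level below is therefore a level of counts on the annotated strand, and in bulk RNA fewer cells of a type and less RNA per cell cannot be told apart. Total counts were 3553547, 2945353 and 3369468 in replicates 1, 2 and 3, the order of all values given by library. A count of 0 allows up to 3 counts. Genes that share at least 1 exon base with an opposite-strand gene, called overlapped here, were 16.2% of the 50600 genes. These overlapped genes held 68.0%, 77.5% and 70.3% of all counts. Each pair of libraries differed beyond counting error, with 24.4% of genes called between replicates 2 and 3, 9.04% between replicates 1 and 3 and 37% between replicates 1 and 2 in the chi-square test described below. Of the Th1 markers, Ifng had 2, 2 and 1 counts and Cxcr3 had 2, 1 and 1, and the 5 markers (Tbx21, Ifng, Stat4, Il12rb2 and Cxcr3) summed to 24.1, 23.0 and 23.1 TPM (a level normalised for exon length and library depth). The 7 T cell markers, Cd4 and Trac among them, summed to 861, 456 and 705 TPM, lowest in replicate 2. Markers of neutrophils, erythroid cells and stroma were at 0 counts, as was Lyz2 of macrophages. Of the B cell markers Ms4a1 was at 0 counts and Cd79a had 19, 18 and 22 counts. Cd8b1, a CD8 T cell marker, had 30, 20 and 36 counts, while the other one, Cd8a, had 1 count per library. The part of other cells in the results was not tested. Il12rb2 held most of the Th1 sum and is overlapped, so that the Th1 part of the label rests on few counts and the T cell part on many. The 3 macrophage markers summed to 154, 166 and 160 TPM, nearly all on the overlapped gene Csf1r.

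Some promoters of members held motifs of known regulators, which the choice of genes did not use and for which no enrichment was tested. RefSeq windows of 250 bases before to 50 after a transcription start (build GRCm38.p6) were found for 69 of the 78 members, in 75 windows. The letters CCGGAAG, the core that ETS factors such as GABP bind, were in 34.7% of the members' windows, against 11.9% of the windows of protein-coding genes and 8.86% of all windows. The core of the motif of NRF1, a regulator of nuclear genes for mitochondrial proteins, was in 17.3% of the members' windows, against 6.61% for protein-coding genes and 4.60% for all. AAGATGGCG, of the YY1 motif, was in 10.7%, against 1.93% for protein-coding genes. TATAAA was in 6.67%, against 12.1% and 13.6%. Both strands were searched, a place matched on both strands was counted once, and matches of different motifs could share bases. Of the 75 windows 34 held none of the first 3 motifs, 35 held 1 of them and 6 held 2. A match is only a string of letters and no site of binding was measured.

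The 4 sequences below are the 250 bases before the start of the members with the highest TPM that have no opposite-strand overlap, hold an ETS or NRF1 match in these bases and cross no annotated exon. Mrpl52 (chr14:54426659-54426908, plus strand) and Mrpl34 (chr8:71464676-71464925, plus strand) encode large subunit proteins, the first found only in mitochondria and the second with a bacterial counterpart. Mrpl45 (chr11:97315466-97315715, plus strand) encodes the protein that anchors the ribosome to the inner membrane, and Mrps22 (chr9:98601680-98601929, minus strand) a mitochondria-specific small subunit protein. They are written 5′ to 3′ on the strand of the gene, and capitals mark the motif letters.
Mrpl52 promoter: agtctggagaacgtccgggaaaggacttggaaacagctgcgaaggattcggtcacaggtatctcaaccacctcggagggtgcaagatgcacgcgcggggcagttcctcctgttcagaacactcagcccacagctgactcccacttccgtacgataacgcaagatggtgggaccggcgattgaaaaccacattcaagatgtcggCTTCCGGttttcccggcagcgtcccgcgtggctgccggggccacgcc
Mrpl34 promoter: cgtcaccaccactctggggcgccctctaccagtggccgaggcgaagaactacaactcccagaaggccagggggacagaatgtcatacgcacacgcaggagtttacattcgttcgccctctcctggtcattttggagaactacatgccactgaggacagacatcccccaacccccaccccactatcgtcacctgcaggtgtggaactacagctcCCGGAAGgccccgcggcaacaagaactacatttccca
Mrpl45 promoter: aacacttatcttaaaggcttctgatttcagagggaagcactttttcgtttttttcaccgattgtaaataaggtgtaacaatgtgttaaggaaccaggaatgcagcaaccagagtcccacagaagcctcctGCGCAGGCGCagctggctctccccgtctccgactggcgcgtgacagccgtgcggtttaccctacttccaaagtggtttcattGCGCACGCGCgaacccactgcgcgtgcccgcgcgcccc
Mrps22 promoter: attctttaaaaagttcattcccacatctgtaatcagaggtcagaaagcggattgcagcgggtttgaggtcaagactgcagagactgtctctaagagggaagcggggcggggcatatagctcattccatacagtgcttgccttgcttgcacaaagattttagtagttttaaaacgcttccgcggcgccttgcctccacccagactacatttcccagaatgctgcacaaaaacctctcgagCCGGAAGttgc
The printed bases of Mrpl45 hold 2 NRF1 matches and those of each of the other genes 1 ETS match, read as its reverse complement CTTCCGG in Mrpl52.

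Nearly all members were detected. A level of at least 1 TPM in each of the 3 libraries was reached by 76 of 78 members, or 97.4%, against 41.2% of protein-coding genes, 64% of the overlapped ones and 34.7% of the others. The 2 exceptions belong to the large subunit. Mrpl23, whose product lies at the exit of the peptide tunnel, had 8, 12 and 15 counts, or 0.862, 1.41 and 1.64 TPM. Mrpl53, a mitochondria-specific protein gene, had 0 counts in each library. By counting error alone this allows up to 2.00, 2.17 and 2.03 TPM on the annotated strand, so its level is not shown to be nil. A level of at least 5 TPM in each library was reached by 69 members, against 24.7% of protein-coding genes. Members held 0.491%, 0.475% and 0.487% of all counts (exact binomial 95% intervals 0.484% to 0.498%, 0.467% to 0.483% and 0.479% to 0.494%, which cover counting error only). Large subunit genes took 0.330%, 0.313% and 0.327% of all counts and small subunit genes 0.161%, 0.161% and 0.160%.

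The counts were concentrated on a few members. Mrpl47 (ENSMUSG00000037531, mm10 chr3:32725397-32737605, minus strand), the counterpart of bacterial protein L29 at the tunnel exit, had 3584, 3664 and 3632 counts. Mrps25 (chr6:92169525-92184033, minus strand), a mitochondria-specific protein of the small subunit, had 2604, 2901 and 2833 counts. These 2 genes held 40.2% of all 47834 counts on members, and the 5 members with the most counts held 54.1%. The levels fell off steeply after them, as the plot of TPM by member shows.

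**Figure D1:**
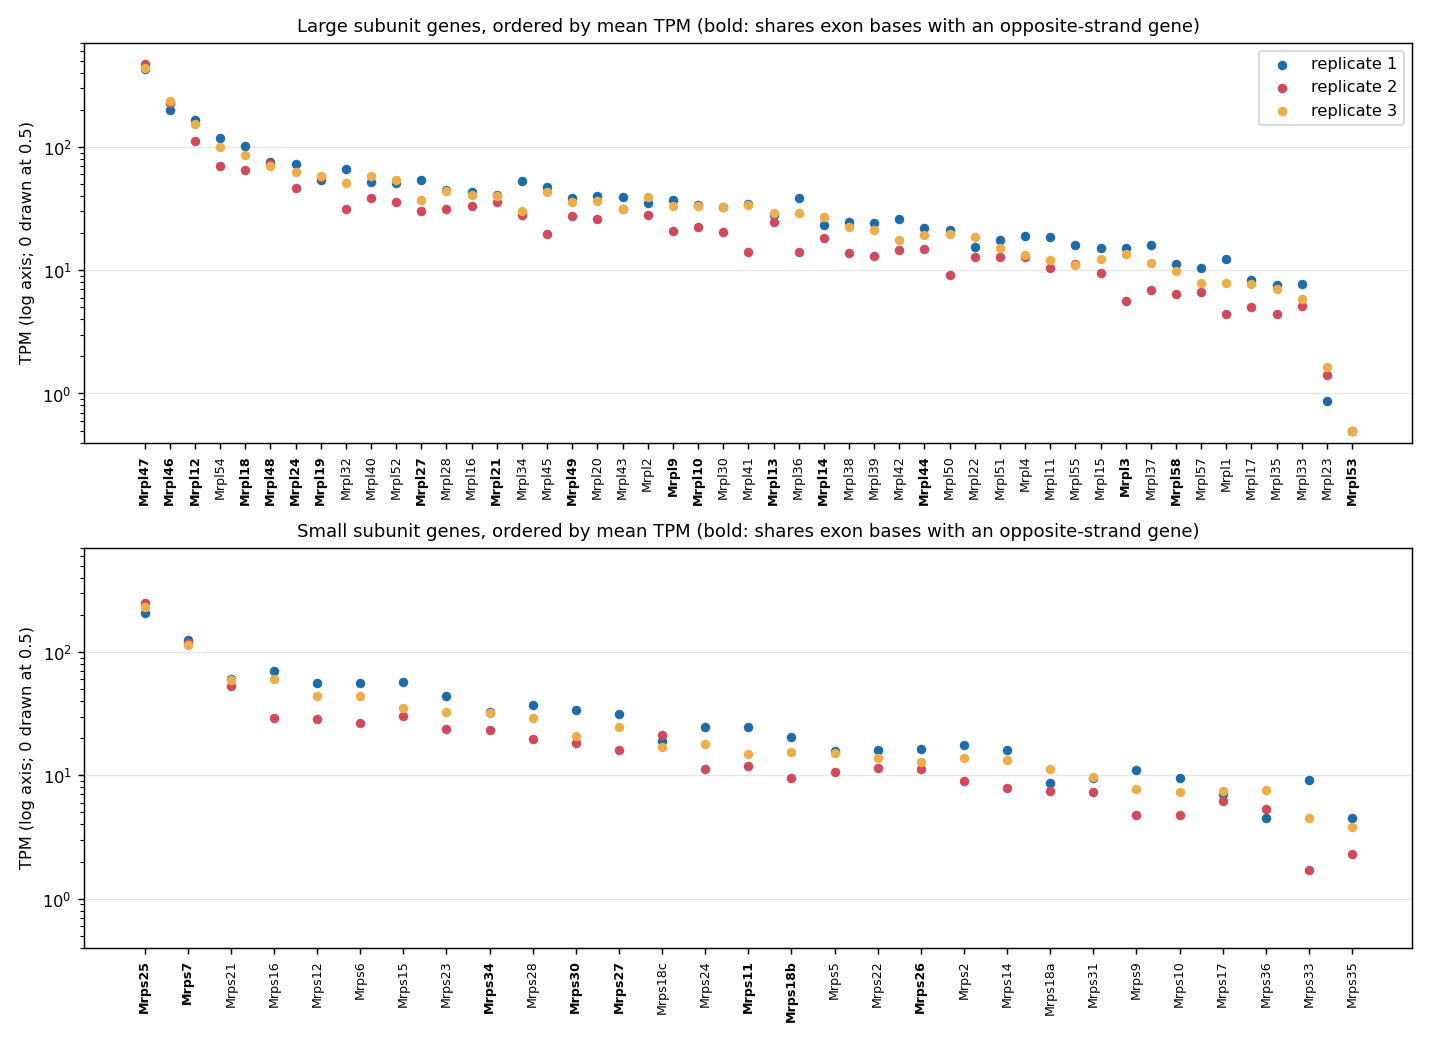
TPM (log axis, 0 drawn at 0.5) of each large subunit gene (top) and small subunit gene (bottom) in replicates 1, 2 and 3, ordered by mean TPM; bold names share exon bases with an opposite-strand gene. Mrpl47 and Mrps25 lead their subunits at 447 and 230 TPM, and Mrpl53 lies at 0.

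Among large subunit genes the highest level was that of Mrpl47, at 427, 474 and 440 TPM (447 ± 24.6, SD, n = 3). Mrpl46, which encodes a mitochondria-specific protein, followed at 199, 228 and 236 TPM. Both were lowest in replicate 1. Mrpl12 encodes the flexible stalk protein that recruits translation factors, and in human cells it is also known to bind the mitochondrial RNA polymerase; it stood at 166, 112 and 153 TPM. Mrpl54 stood at 118, 69.3 and 99.2 TPM and Mrpl18, the counterpart of bacterial L18, at 102, 65.5 and 85.4 TPM. These last 3 were lowest in replicate 2. Mrpl12 was above Mrpl54 within each library, although their ranges over the libraries overlapped. Mrpl54 was the highest member without an opposite-strand overlap, and the next such large subunit genes were Mrpl32 at 66.4, 31.3 and 50.9 TPM and Mrpl40 at 51.6, 38.2 and 57.7 TPM. The product of Mrpl32 is known to be cut to its mature form by a protease of the inner membrane. At the low end, above Mrpl23 and Mrpl53, Mrpl33 stood at 7.76, 5.15 and 5.84 TPM.

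In the small subunit Mrps25 stood at 208, 252 and 231 TPM, lowest in replicate 1. Mrps7, the counterpart of a bacterial protein that organises the head of the subunit, stood at 126, 119 and 114 TPM. The next 3 have bacterial counterparts and no opposite-strand overlap: Mrps21 at 60.5, 52.6 and 59.4 TPM, Mrps16 at 69.7, 29.3 and 60.5 TPM, and Mrps12, whose product sits at the decoding centre, at 56.2, 28.6 and 43.7 TPM. The ranges of these 3 overlapped and each was lowest in replicate 2. The level of Mrps16, like that of Mrpl32, rests on a short exon length in the files and falls per principal transcript length, as given below. The lowest small subunit genes were Mrps35 at 4.51, 2.32 and 3.84 TPM, Mrps33 at 9.15, 1.72 and 4.49 TPM and Mrps36 at 4.54, 5.39 and 7.56 TPM. Mrps33 rested on 29, 5 and 14 counts, so its spread is wide. The product of Mrps36 is now known as a part of the 2-oxoglutarate dehydrogenase complex rather than of the ribosome, and 3 processed pseudogenes of it, which could share its reads, had 3 counts in all.

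Several members are named for roles beyond the core. Mrpl58 encodes a peptidyl-tRNA hydrolase that frees stalled ribosomes and stood at 11.2, 6.35 and 9.80 TPM. Mrpl11, at the base of the factor-binding stalk, stood at 18.4, 10.3 and 12.1 TPM. Mrps27, a protein of the RNA-binding pentatricopeptide family, stood at 31.6, 16.1 and 24.9 TPM, and Mrps34, a mitochondria-specific protein, at 32.9, 23.6 and 31.9 TPM. All 4 were lowest in replicate 2. The paralogs Mrps18a, Mrps18b and Mrps18c, which can share reads where their sequences agree, stood at 9.10 ± 1.90, 15.2 ± 5.54 and 19.1 ± 2.18 TPM (SD, n = 3), and their place in the ribosome differs: Mrps18a and also Mrps30 (24.4 ± 8.45 TPM) are found in the large subunit by structure despite their symbols.

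Exon length entered these levels. Over the 52 members that are not overlapped, mean TPM and exon length had a Spearman rho of -0.75, against 0.05 over the 26 overlapped members (a description across genes, which share libraries and the length in the unit itself). Between summed counts and exon length, with no length in the unit, rho was 0.34 over the same 52 members. The exon length in the files is the union of all annotated exons. It was 1.28 times the length of the principal transcript of the gene (GENCODE M21) at the median, with 1.19 times for large and 1.47 times for small subunit genes. Mrpl33 was the extreme case in one direction, with 7326 bases against 478, and per principal transcript length its level would be 95.8 ± 20.7 on the same scale instead of 6.25 ± 1.35 TPM (SD, n = 3). In the other direction, the principal transcripts of Mrps16 and Mrpl32 were longer than their counted exons, with 566 bases in the files against 2572 for Mrps16 and 768 against 3013 for Mrpl32. Per principal length Mrps16 would be at 11.7 ± 4.66 instead of 53.2 ± 21.2 TPM and Mrpl32 at 12.6 ± 4.49 instead of 49.5 ± 17.6 TPM (SD, n = 3), so that neither would be among the highest members, although reads on the bases outside the counted exons are not in these counts. Per principal length the rho over the 52 members was -0.64.

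The large subunit genes had the higher median level in every library. The median was 33.6, 19.8 and 30.0 TPM for the 49 large subunit genes and 20.7, 11.5 and 15.4 TPM for the 29 small subunit genes. On the log2(TPM + 1) scale the large minus small difference in medians was 0.68, 0.74 and 0.92, with a mean of 0.78 ± 0.13 (SD, n = 3; exact two-sided sign-flip permutation test over libraries, p = 0.25, the smallest that 3 libraries allow). The difference therefore exceeded the spread between libraries and could not pass a test in this design. The same genes were compared in each library, so that spread does not measure the spread between genes. Its size depended on the length, the members and the average used. As a difference of means over members instead of medians it was 0.34 ± 0.05. With principal transcript lengths, an alternative chosen after the data were seen, it was 0.31 ± 0.17, and among members that are not overlapped it was 0.50 ± 0.15 with union lengths. With both it was 0.05 ± 0.05, at 0.08, 0.09 and -0.01 in the 3 libraries, so that the direction was no longer the same in every library. CPM, which uses no length, gave 0.29 ± 0.16.

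**Figure D2:**
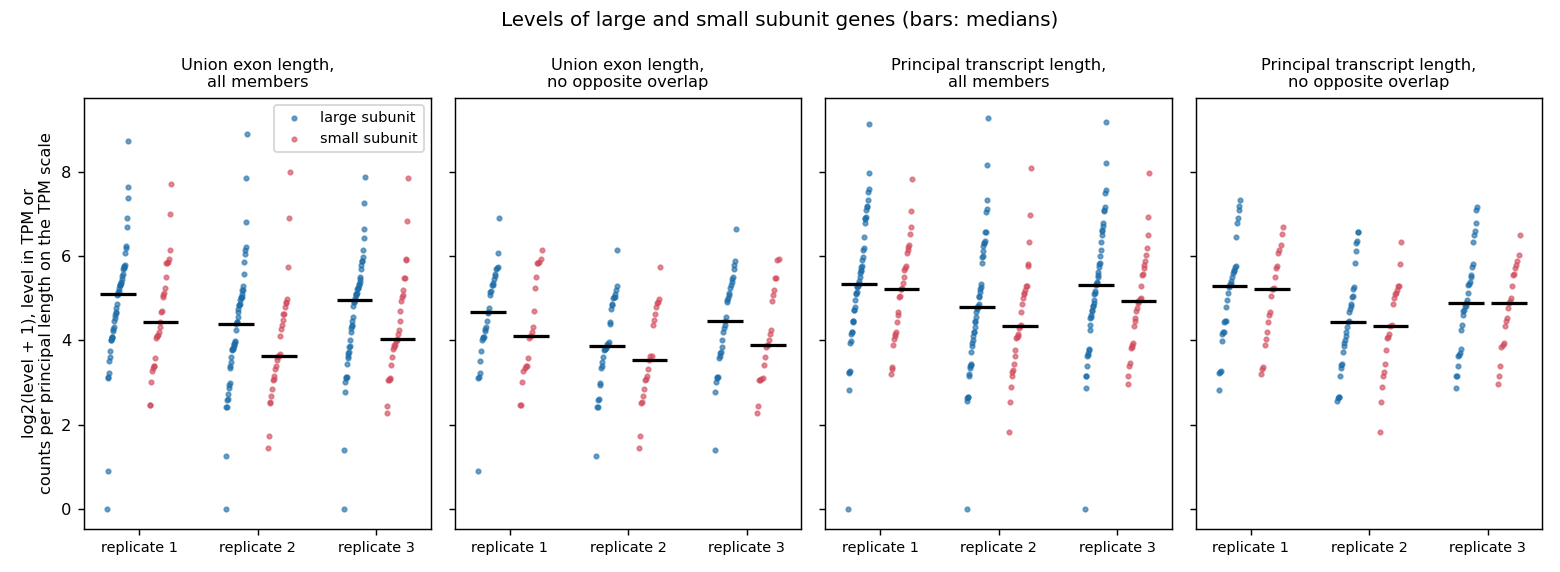
Levels of large subunit genes (blue, left in each pair) and small subunit genes (red, right) in each replicate, as log2(level + 1), with bars at the medians; the panels use the union exon length or the principal transcript length, over all members or those without an opposite-strand overlap. The gap between medians averages 0.78 in the first panel and 0.05 in the last.

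With Mrps18a and Mrps30 counted in the large subunit and Mrps36 left out, the large minus small difference was 0.66 ± 0.14, higher in 3 of 3 libraries. The 46 members with bacterial counterparts had a median of 33.2, 20.7 and 29.3 TPM and the 29 mitochondria-specific ones 24.8, 14.2 and 21.1 TPM, a difference in log2(TPM + 1) of 0.46 ± 0.05 (SD, n = 3). Mrps18a, Mrps30 and Mrps36 were placed in neither class. Among members that are not overlapped the difference reversed to -0.21 ± 0.14, with 32 conserved and 18 mitochondria-specific genes, and it was -0.16 ± 0.08 in CPM. The order of conserved and mitochondria-specific genes thus differed with the members and the unit used.

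In all, 26 members, or 33.3%, shared exon bases with an opposite-strand gene, against 22.1% of protein-coding genes. The share was 30.4% for nuclear complex I genes and 18.5% for cytosolic ribosomal protein genes. It was 57.1%, 52.2% and 40% for the translation factors, assembly factors and other mitoribosome proteins listed below. The overlapped members were 18 large and 8 small subunit genes. Their median was 35.6, 24.1 and 33.3 TPM, against 20.1, 12.9 and 17.7 TPM for the other 52 members, a difference in log2(TPM + 1) of 0.84 ± 0.04 (SD, n = 3; exact two-sided sign-flip permutation test, p = 0.25, the smallest possible). The same direction held over all protein-coding genes, with a median of 5.93, 4.00 and 5.21 TPM for overlapped ones and 0 in each library for the others. Overlapped members took 0.342%, 0.376% and 0.355% of all counts, highest in replicate 2. The other members took 0.149%, 0.0984% and 0.132%, lowest in replicate 2, and the ranges of both did not overlap. Over all genes the share of counts on overlapped ones, at 68.0%, 77.5% and 70.3%, was also highest in replicate 2.

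Within the 27 pairs of a member and an opposite-strand gene, the counts lay mostly on one side. The gene with more counts held 92.2% of the counts of a pair at the median, against 86.6% over all opposite-strand pairs with 100 counts or more. It had at least 5 times the counts of the other in 21 of 27 pairs, or 77.8%, against 57.6% of all such pairs. Of the overlapped members 9 had more counts than each opposite gene, and they stood at 11.4 to 447 TPM. The other 17 had fewer counts than an opposite gene and stood at 0 to 144 TPM. Seen from the member, 15 pairs ran head to head, 9 tail to tail and 4 nested, with the pair of Mrpl46 and Mrps11 counted from both sides. The member had more counts in 6, 5 and 0 of these, and matching shares over all opposite-strand pairs are not given here.

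On the first side, Mrpl47 shares 616 exon bases with Ndufb5, a complex I subunit gene, at its start, and 452 bases with Actl6a, a chromatin remodeller gene, at its end. Mrpl47 had 3584 to 3664 counts, against 134, 56 and 118 on Ndufb5 and 298, 224 and 278 on Actl6a. The 452 bases lie in the 3′ UTR of Mrpl47, and those shared with Ndufb5 lie in its 5′ UTR and in other exons outside its coding part. Mrps25 shares 69.8% of its exon bases, all 4590 of them in its 3′ UTR, with the nuclear receptor gene Nr2c2. Mrps25 had 2604, 2901 and 2833 counts, against 342, 314 and 318 on Nr2c2. Mrpl48 shares 708 bases of 5′ UTR with the GTPase gene Rab6a, and had 1162, 1037 and 1060 counts against 133, 49 and 94. In each of these pairs the member had the more counts in every library.

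The pair of Mrpl46 and Mrps11 joins both subunits at a shared start. Mrpl46 lies on the minus strand of chr7 and Mrps11 on the plus strand, they overlap by 173 exon bases, and these reach 65 bases into the coding part of Mrps11. Mrpl46 had 536, 565 and 623 counts and Mrps11, the counterpart of a bacterial protein of the subunit's platform, had 101, 45 and 60. The counts of Mrpl46 were thus above those of its partner in each library, while replicate 2 was the lowest for Mrps11 and not for Mrpl46.

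On the other side, the gene opposite Mrpl12 took the most counts of any partner. Mrpl12 had 482, 300 and 439 counts, against 8874, 9705 and 9303 on Gm16755, a lincRNA gene that shares 200 bases with it. Mrpl18 shares 141 bases at its start with Tcp1, which encodes a subunit of the cytosolic chaperonin, and had 270, 160 and 223 counts, against 4590, 4133 and 4376 on Tcp1. Both partners were above the member in each library. Mrps34 shares 63.4% of its exon bases with Mapk8ip3, a kinase scaffold gene, and had 129, 85 and 123 counts against 3661, 4109 and 4003. Mrps30 shares 37.8% with B430218F22Rik, and had 103, 51 and 62 counts against 1094, 1132 and 1219. Mrps18b had 82, 35 and 60 counts, against 2050, 1949 and 1895 on the antisense gene Gm16279. In each of these pairs the member had fewer counts in every library. Of the 8 partners annotated as noncoding, 7 had more counts than the member, and of the 20 protein-coding partners 10 had. Matching shares by partner type over all opposite-strand pairs are not given here, so this is no trait shown for members. Opposite Mrpl53, at 0 counts, the antisense gene Ccdc142os had 142, 178 and 180. The 28 overlaps held coding, 5′ UTR and 3′ UTR bases of the members, and which gene of a pair a read pair came from cannot be told apart from these counts.

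**Figure D3:**
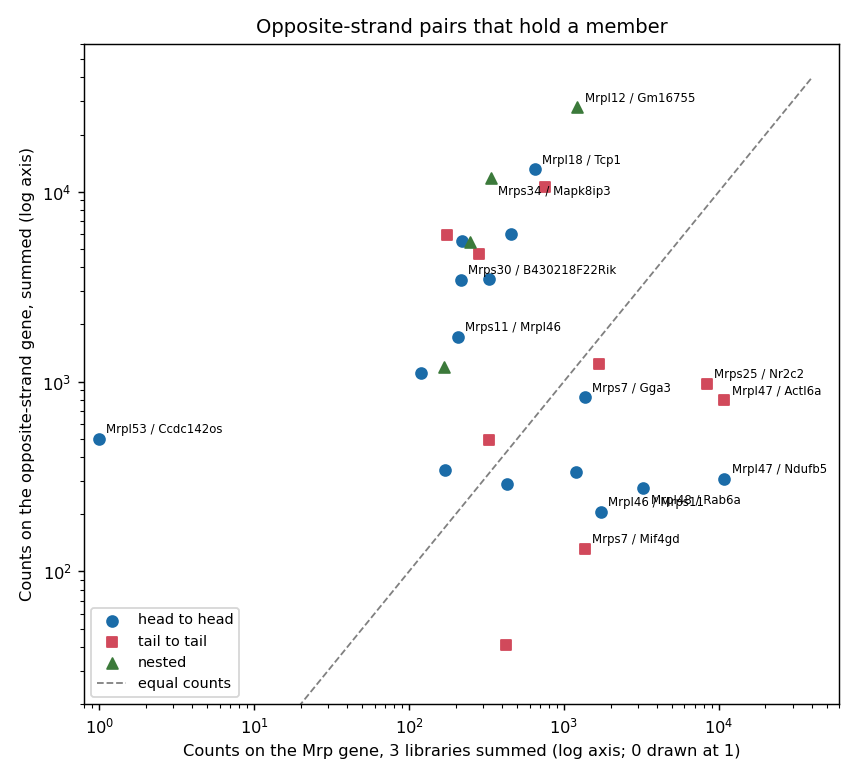
Counts on each overlapped Mrp gene (x axis) and on its opposite-strand gene (y axis), summed over the 3 libraries, on log axes, by how the genes lie to each other; 0 is drawn at 1 and the dashed line marks equal counts. Most pairs lie well off the line, with Mrpl12 and Gm16755 at 1221 and 27882 counts and Mrpl47 and Ndufb5 at 10880 and 308.

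Some members differed between libraries beyond counting error. A chi-square test against counting error was run on all 10216 genes that passed the filter on low counts, at library sizes scaled by TMM (which centres the ratios of most genes), with Benjamini-Hochberg adjustment at 0.05. It called 13 of the 75 members tested, or 17.3%, against 35.6% of all genes. Among overlapped members it called 8 of 25, against 53% of overlapped genes, and among the others 5 of 50, against 22.7%. These shares were not tested against each other, and the test has less power for genes with few counts. Mrpl23, Mrpl53 and Mrps33 did not pass the filter.

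Of the 8 called overlapped members 7 were highest in replicate 2, near the background of 86.3% of called overlapped genes. Mrps25 had 663, 1162 and 811 TMM-scaled CPM, a 1.75-fold range (chi-square test, adjusted p = 3.28e-98). Mrpl47 had 913, 1468 and 1039 (adjusted p = 1.84e-95) and Mrpl46 had 136, 226 and 178 (adjusted p = 3.88e-15). Replicate 2 was highest in all 3. Mrpl48, Mrpl19, Mrps7 and Mrpl13 were also called and highest in replicate 2. These 7, of which Mrpl48, Mrpl19 and Mrpl13 are named after their values were seen, are all among the 9 members with more counts than their opposite genes. Over all 25 tested overlapped members, 7 were both called and highest in replicate 2, against 45.8% of tested overlapped genes. Of those 9, 8 were highest in replicate 2 whether called or not, while of the 16 tested members with fewer counts than an opposite gene 1 was, against 65.1% of overlapped genes. The opposite genes with more counts than their member were highest in replicate 2 in 17 of 17 cases. Mrpl46, opposite Mrps11, is counted both among these 17 and among the 9 members. These 9 and 16 members and 17 opposite genes were picked by summed counts that include replicate 2. The 65.1% is over all tested overlapped genes, without such a choice. The matching share for the higher gene of all opposite-strand pairs was not computed, so these numbers have no matching background.

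The remaining called members were low in replicate 2 or high in replicate 1. Mrpl3, the counterpart of a bacterial protein near the catalytic centre, had 48.6, 26.4 and 48.1 TMM-scaled CPM (chi-square test, adjusted p = 0.00016). Mrpl45 had 59.1, 36.1 and 59.5 (adjusted p = 0.000427) and Mrpl1, of the mobile stalk at the tRNA exit site, had 25.7 in replicate 1 and 13.2 in replicate 2 (adjusted p = 0.00635). In these 3 replicate 2 was the lowest. Mrps15, Mrpl37 and Mrps9 were called too and highest in replicate 1. Among all 50 tested members that are not overlapped, 26 were lowest in replicate 2, against 57.5% of all such genes, so that this share was near the background.

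The direction depended on the scaling. With total counts as library sizes, under which the median tested gene was 0.42 lower in replicate 2 than in replicate 1 on the log2 scale (0.04 lower with TMM), 41 of 75 members were called, or 54.7%, against 51.7% of all genes. Then 44 of the 50 members without overlap were lowest in replicate 2, against 81.9% of such genes. Mrpl47, Mrps25 and Mrpl46 were still called and highest in replicate 2, with adjusted p = 2.31e-17, 2.96e-25 and 0.000408 in the chi-square test. Of the 9 members with more counts than their opposite genes 6 were highest in replicate 2, against 45.6% of overlapped genes. That 45.6% too is over genes not picked by their counts within a pair. Mrps7, Mrpl48, Mrpl19 and Mrpl13 were not called with total counts, at adjusted p = 0.324, 0.0604, 0.0686 and 0.513. With TMM computed on genes that are not overlapped, 11 members were called, against 33.3% of all genes, and Mrpl1, Mrpl37, Mrps9 and Mrps15 were not (adjusted p = 0.0507, 0.227, 0.254 and 0.0682). DESeq2 size factors gave 11 members, against 34.7% of all genes. The number called was 8 without replicate 1, 4 without replicate 2 and 13 without replicate 3, against 24.4%, 9.04% and 37% of all genes.

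**Figure D4:**
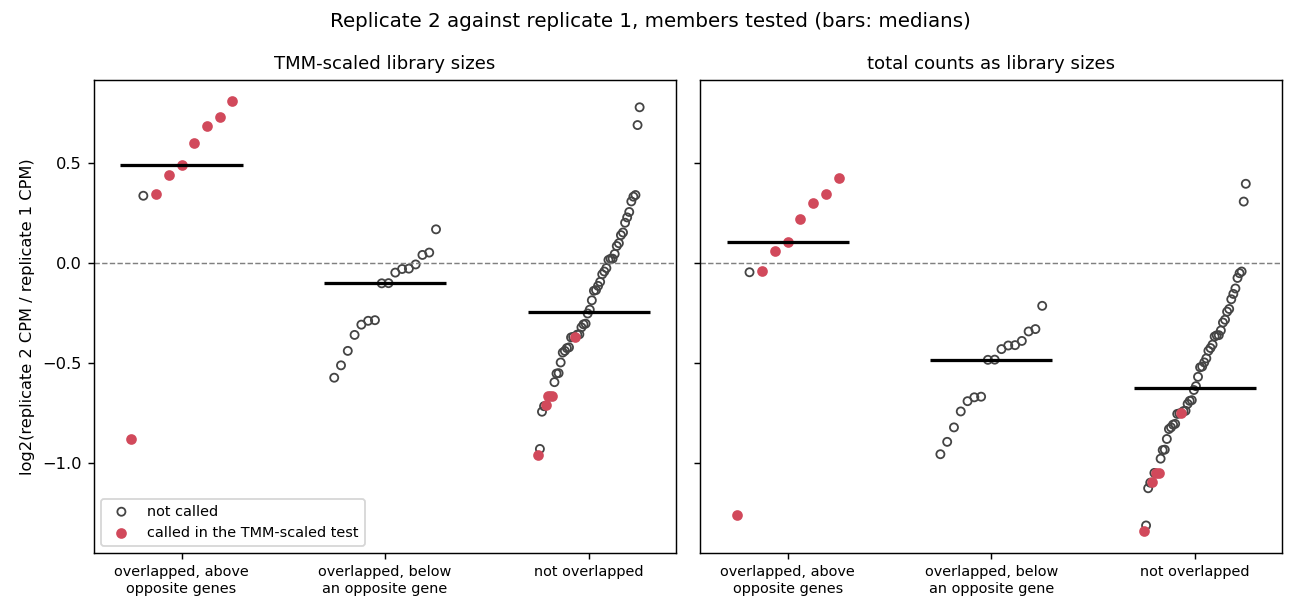
Ratio of CPM in replicate 2 to replicate 1 on the log2 scale for the 75 tested members, with TMM-scaled library sizes (left) and total counts (right), split into overlapped members above their opposite genes, overlapped members below an opposite gene, and members not overlapped; bars are medians and filled points were called in the TMM-scaled test. In the first group 8 of 9 members are highest in replicate 2 with TMM-scaled sizes and 6 with total counts.

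Other genes of mitochondrial translation were detected as widely. Of 5 mitoribosome protein genes with other symbols all reached 1 TPM in each library, and 1 was called between libraries: Gadd45gip1 of the large subunit, which is overlapped, stood at 493, 605 and 526 TPM, and Chchd1 of the small subunit, which is not overlapped, at 160, 84.8 and 134 TPM. Aurkaip1, also of the small subunit, had 127, 87 and 109 counts, Dap3 had 172, 136 and 193, and Ptcd3 had 217, 104 and 167. Of the translation factor list 14 of 15 genes were found by symbol and all 14 were detected, with a median of 17.6, 16.4 and 17.9 TPM. The 6 of them without overlap had a median of 9.60, 4.85 and 6.95 TPM. Tufm, the elongation factor that brings tRNA to the ribosome, stood at 35.2, 24.5 and 38.0 TPM. Mtif3, an initiation factor, and Slirp, which stabilises mitochondrial mRNAs, stood at 433 and 782 TPM on average, and both are overlapped. Of 23 assembly factor genes 22 were detected, with a median of 8.35, 3.89 and 7.08 TPM. Between libraries 5 of 13 tested translation factors and 4 of 19 tested assembly factors were called, against 35.6% of all genes. The ribosome's own RNAs, mt-Rnr1 and mt-Rnr2, had 389, 196 and 357 counts and 377, 194 and 353 counts. In TPM they stood at 214, 117 and 200 and at 125, 70.1 and 119, lowest in replicate 2. Both were called (chi-square test at TMM library sizes, adjusted p = 0.0251 and 0.0332). The library protocol is named for polyA+ RNA, and its effect on the levels of these RNAs was not tested.

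Set beside related families, the members had a lower median TPM than complex I genes and cytosolic ribosomal protein genes. The median over members was 27.2, 15.5 and 23.7 TPM. It was 37.6, 20.5 and 31.7 TPM over 46 nuclear complex I genes, all of them detected, and 324, 222 and 306 TPM over 92 cytosolic ribosomal protein genes, of which 82 were detected. Among genes that are not overlapped the medians were 20.1, 12.9 and 17.7 TPM for members, 37.6, 20.5 and 31.7 TPM for complex I genes and 319, 220 and 305 TPM for cytosolic ribosomal protein genes. Over all protein-coding genes the median was 0.449, 0.310 and 0.399 TPM. By TPM the order of the 3 families was the same in 3 of 3 libraries, which allows no test below p = 0.25 by exact sign flips. The median exon length was 2080.5 bases for members, 1438 for complex I genes and 1647 for cytosolic ribosomal protein genes. TPM divides by this length. As shares of all counts, which use no length, members took 0.491%, 0.475% and 0.487% and complex I genes 0.148%, 0.110% and 0.137%. Members were thus above complex I genes by this measure, with cytosolic ribosomal protein genes at 3.45%, 2.72% and 3.43%. These sums grow with the number of genes, and 2 members held 40.2% of the members' counts. Whether the order of medians holds in another unit was not tested.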

How the data were processed

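The authors deposited raw counts of read pairs per gene for 3 libraries, per the file headers with featureCounts 1.4.6-p4, which summed exons over each gene of GENCODE M13, required both ends aligned and used strand option 1; the build is mm10 per the labels. The aligner's version and the library kit are not given in the sources used here. Gene symbols and types were matched by identifier to GENCODE M21, on the same build, which named 50376 genes and left 224 without a symbol. TPM and CPM were computed here from these counts and the union exon lengths in the deposited files; genes overlapped by an opposite-strand exon were found from the exon coordinates in the same files.

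The tests were planned for counts. With 1 group no quasi-likelihood contrast was possible, so each gene was tested with a chi-square test against Poisson error (2 degrees of freedom) at TMM library sizes, over the 10216 genes kept by filterByExpr of edgeR. P-values were Benjamini-Hochberg adjusted, with calls at 0.05. The test was checked on simulated counts. Alternatives were DESeq2 size factors, total counts, other pseudocounts, filters and lengths, and leaving out each replicate. Members and lists were chosen with earlier results of these data known; named genes are the 5 highest and 3 lowest of each subunit by mean TPM, members at 0, the 5 highest without overlap, the 5 called with the largest ratio between libraries, the 3 with the highest share of overlapped bases and a list of known roles. Other members and opposite genes were named after their values were seen. Conserved and mitochondria-specific classes, principal lengths, pair counts and motifs were added after the values were seen. Intervals and the limit of 3 counts cover counting error only: without molecular identifiers, read pairs cannot be taken as independent molecules. Software was R 4.3.3, edgeR 4.0.16, DESeq2 1.42.0, Python 3.11.15, numpy 2.4.6, pandas 2.3.3 and scipy 1.17.1.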

Additional observations from a re-analysis of the deposited data

How the results depend on the processing

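No paired analysis was possible because the series has 1 group. The large minus small difference in log2(TPM + 1) was positive on average under all 12 alternatives, from 0.05 to 0.83, and from 0.71 to 0.83 with a replicate left out. The overlapped minus other difference ranged from 0.64 to 1.07 over 7 alternatives. The conserved minus mitochondria-specific difference reversed to -0.21 without overlapped members and to -0.16 in CPM, and was 0.43 to 0.48 with a replicate left out; the cause was not tested. Between 69 and 77 members were detected, and the share of counts on members was 0.481% to 0.490%. The number of members that differed between libraries was 13 as reported, 11 with DESeq2 size factors, 41 with total counts and 4 to 13 with a replicate left out, where the test uses fewer samples: 8 without replicate 1, 4 without replicate 2 and 13 without replicate 3. Over protein-coding genes only, TPM is 2.48 times as high, which moved 28 of the 29 named members by more than their SD; leaving out a replicate moved none of them. Depth limits members such as Mrpl23, Mrpl53 and Mrps33, whose counts were too few to test between libraries.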
